A study of Mus musculus with 8 samples.

Results

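The 10 genes described here are markers of neurons and their axons: the neurofilament genes Nefl, Nefm and Nefh, the related filament gene Prph, the tubulin gene Tubb3, the growth cone genes Stmn2 and Gap43, the synaptic release genes Snap25 and Syt1, and Uchl1. They were listed by name, and their probe sets are those of the array that the platform annotation assigns to one of them alone. This gave 19 of the 45037 probe sets and 10 of the 18193 genes measured. The study compared lumbar intervertebral discs of female BALB/c mice with proteoglycan-induced spondylitis, an autoimmune inflammation of the spine, with discs of naive mice. The 5 immunized samples came from mice given cartilage proteoglycan (100 µg of protein) with 2 mg of the adjuvant DDA on days 0, 21 and 42. The 3 naive samples came from mice matched to them for age, so the effects of antigen and adjuvant cannot be told apart. Each sample was total RNA of 6 pooled discs, L1 to L6, on an Affymetrix array. The descriptions of immunized replicate 1 and naive replicate 3 each join a pair of sample numbers; the sources used here do not say whether mice were pooled. P-values set the difference between the groups against the spread of these samples within each group.

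Neurofilaments are the intermediate filaments of axons, built from light, medium and heavy chains, and they set the calibre of large myelinated fibres. Peripherin, the product of Prph, is a filament protein of peripheral neurons. Class III beta-tubulin, stathmin 2 and GAP-43 belong to the axon and its growth cone, SNAP-25 and synaptotagmin 1 to the machinery that releases transmitter, and UCHL1, a ubiquitin hydrolase also called PGP9.5, is a standard stain for nerve fibres. A healthy disc holds few nerve fibres, mostly in its outer ring, and the cell bodies of many of these neurons lie in the dorsal root ganglia. In bulk tissue, fewer cells of a type and less RNA per cell cannot be told apart.

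Nefl (GRCm38.p6 chr14:68083863-68089095) and Nefm (chr14:68119545-68125004) lie side by side on chromosome 14. Nefh is on chromosome 11, Prph on 15, Tubb3 on 8, Stmn2 on 3, Gap43 on 16, Snap25 on 2, Syt1 on 10 and Uchl1 on 5. RefSeq promoter windows, 250 bases before to 50 after a transcript start, were matched for 4 of the 10 genes. Those of Prph, Tubb3 and Uchl1 are shown because the 3 genes had their highest mean value in the same disc sample. For Prph this rests on probe set 1422530_at alone, and other members without a window were also highest there. Capitals mark a TATA box (TATAAA), a GC box (GGGCGG) or a CCAAT box (CCAAT) on either strand.
Prph promoter, chr15:99054924-99055223, plus strand: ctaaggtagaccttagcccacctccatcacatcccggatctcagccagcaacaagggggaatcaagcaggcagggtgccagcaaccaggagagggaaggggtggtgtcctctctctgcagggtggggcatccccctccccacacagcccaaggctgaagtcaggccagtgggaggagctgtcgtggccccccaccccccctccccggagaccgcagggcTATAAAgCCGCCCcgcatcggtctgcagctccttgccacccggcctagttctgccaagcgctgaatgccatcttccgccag
Tubb3 promoter, chr8:123411303-123411602, plus strand: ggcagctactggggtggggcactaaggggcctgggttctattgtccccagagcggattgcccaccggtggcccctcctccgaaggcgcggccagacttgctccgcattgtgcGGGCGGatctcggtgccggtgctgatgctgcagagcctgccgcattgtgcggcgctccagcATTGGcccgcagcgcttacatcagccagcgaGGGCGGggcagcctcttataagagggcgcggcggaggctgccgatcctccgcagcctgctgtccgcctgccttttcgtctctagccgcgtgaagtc
Uchl1 promoter, chr5:66675871-66676170, plus strand: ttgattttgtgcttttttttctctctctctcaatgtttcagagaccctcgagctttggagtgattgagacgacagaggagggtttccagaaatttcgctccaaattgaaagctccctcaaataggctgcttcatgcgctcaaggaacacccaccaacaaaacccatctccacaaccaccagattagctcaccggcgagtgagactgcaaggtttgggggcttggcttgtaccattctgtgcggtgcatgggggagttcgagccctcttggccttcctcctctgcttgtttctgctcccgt
The Prph window held 1 TATA box and 1 GC box, which did not overlap, and the Tubb3 window 2 GC boxes and 1 CCAAT box. The Uchl1 window held none of these letters. Over 32851 windows of 300 bases, 13.6% held the TATA box, 35.7% the GC box and 37.4% the CCAAT box.

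None of the 10 genes passed the test between immunized and naive discs, whereas most of them differed widely among the immunized discs. The neurofilament genes, Uchl1, Tubb3 and Snap25 were highest in immunized replicates 1 and 5. The neurofilament genes and Uchl1 were low in immunized replicates 3 and 4. Snap25 was lowest in replicate 3 (-1.02) and less low in replicate 4 (-0.27). Each value is a log2 expression level with the gene's own median over the 8 arrays taken as about 0, and no gene's level can be set against another's. A difference of 1 is thus a doubling. Immunized minus naive differences were tested with limma, with p-values adjusted over 18193 genes (Benjamini-Hochberg) and called under 0.05. By this test 0 of the 10 genes were called, and 1 (Stmn2) had an unadjusted p under 0.05. Over all genes 9.14% were called, 4.46% higher and 4.68% lower in immunized discs. An unadjusted p under 0.05 was found for 31.1% of all genes, with 12.9% higher and 18.2% lower. The groups overlapped in all 10 genes, whereas over all genes 23.4% had no overlap, 9.39% being higher and 14% lower. Positive differences were found for 8 of the 10, with a median of 0.40. Over all genes 7985 of 18193 were positive, with a median of -0.04. The differences of Uchl1, Tubb3 and Snap25 nearly vanished when a single immunized disc was left out, as given below.

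**Figure D1:**
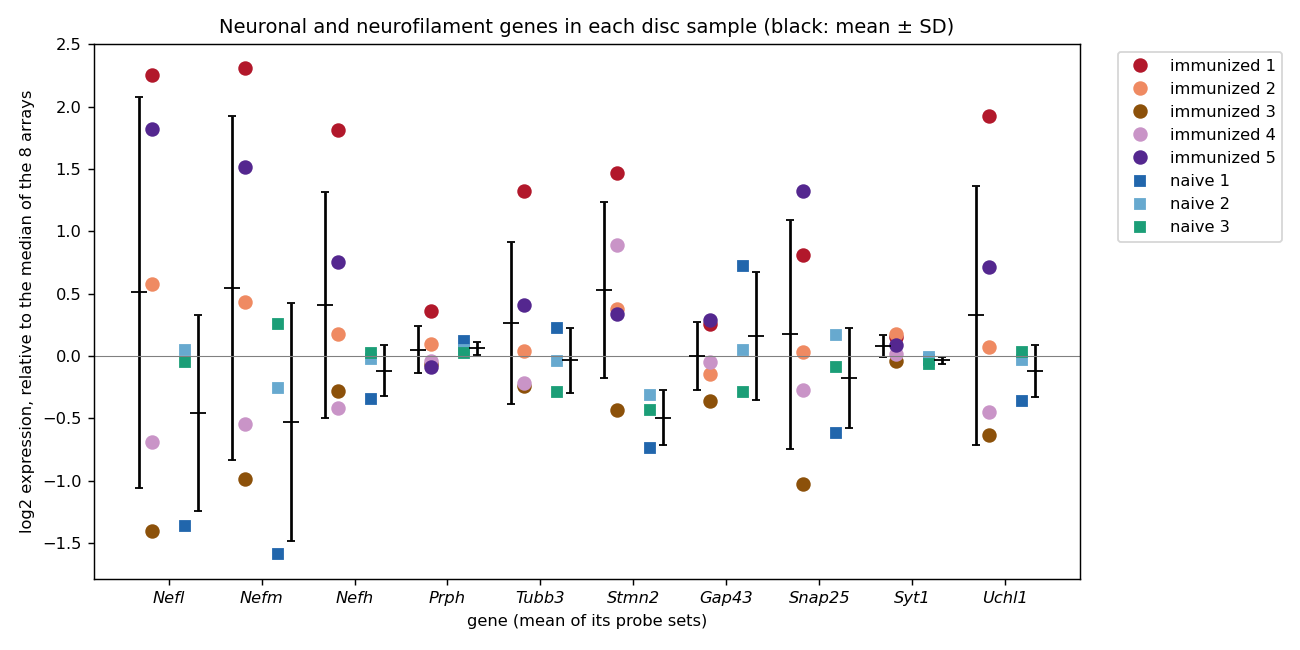
Values of the 10 genes (vertical axis, log2, 0 near the median array) in each of 5 immunized samples (circles) and 3 naive samples (squares); black bars are the group mean ± SD. Immunized replicate 1 is the highest sample for 7 of the 10 genes, and the naive samples lie inside the immunized range for Nefl, Nefh, Prph, Snap25 and Uchl1.

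The light chain gene Nefl read 2.25, 0.58, -1.40, -0.69 and 1.82 in immunized replicates 1 to 5, against -1.36, 0.05 and -0.05 in naive replicates 1 to 3. Immunized replicates 1 and 5 were far above all naive discs, and immunized replicate 3 was about as low as naive replicate 1. The medium chain gene Nefm read 2.31, 0.43, -0.98, -0.54 and 1.52 in the immunized discs, against -1.59, -0.26 and 0.26 in the naive discs. Its samples stood in nearly the same order as those of Nefl. The heavy chain gene Nefh read 1.81, 0.17, -0.28, -0.41 and 0.75, against -0.35, -0.02 and 0.02 in naive discs. Here too immunized replicates 1 and 5 led, and naive replicate 1 was again the lowest naive disc, with a smaller gap than in Nefl and Nefm.

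The immunized mean of Nefl was 0.51 ± 1.57 (SD, n = 5) and the naive mean -0.45 ± 0.79 (SD, n = 3). The difference, 0.97 ± 0.82 (SE), had a 95% interval of -0.88 to 2.81 (limma, adjusted p = 0.450). Nefm differed by 1.08 ± 0.75 (SE, interval -0.63 to 2.78, limma adjusted p = 0.359) and Nefh by 0.52 ± 0.45 (SE, interval -0.50 to 1.55, limma adjusted p = 0.461). These intervals include both no difference and a rise of over 1 on the log2 scale. Without naive replicate 1 the difference of Nefl was 0.51 and that of Nefm 0.55. Without immunized replicate 1 they were 0.53 and 0.64.

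Both probe sets of Nefl showed the same samples high, with 2.74 and 1.60 (1426255_at) and 1.76 and 2.04 (1454672_at) in immunized replicates 1 and 5. The SD of Nefl within the immunized group exceeded that of 99.96% of all genes, that of Nefm 99.94% and that of Nefh 99.7%. Within the naive group the SD of Nefl exceeded 99.7% and that of Nefm 99.9% of genes, but that of Nefh only 69.3%. The spread of Nefl and Nefm thus appeared in both groups. In the naive group naive replicate 1 lay lowest in both genes (-1.36 and -1.59). That array also held the highest value of 24.0% and the lowest value of 21.6% of all genes.

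Prph, the filament of peripheral neurons, has 4 probe sets that disagreed. The probe set annotated with a RefSeq transcript, 1422530_at, read 1.71, 0.22, -0.13, -0.19 and 0.08 in the immunized discs, against 0.07, -0.15 and -0.07 in the naive discs. Immunized replicate 1 stood alone, and immunized replicate 5 lay among the rest, unlike its place in the neurofilament genes. The remaining 3 probe sets, which carry no accession in the annotation, read at most 0.12 in any immunized disc. One of them, 1420256_x_at, was lower in all 5 immunized than in all 3 naive discs, with a difference of -0.27 ± 0.08 (SE, limma adjusted p = 0.0808). Averaged over all 4, Prph differed by -0.01 ± 0.11 (SE, limma adjusted p = 0.953), and with 1422530_at alone by 0.39.

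Uchl1, the general nerve fibre marker, read 1.92, 0.07, -0.63, -0.45 and 0.72 in the immunized discs, against -0.36, -0.03 and 0.03 in the naive discs. Immunized replicates 1, 2 and 5 lay above and replicates 3 and 4 below every naive disc. The difference was 0.45 ± 0.51 (SE, interval -0.72 to 1.61, limma adjusted p = 0.588), and 0.046 without immunized replicate 1. The SD among immunized discs, 1.04, exceeded that of 99.8% of genes, and among naive discs it was 0.21.

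Tubb3, the tubulin isotype of neurons, read 1.32, 0.04, -0.24, -0.21 and 0.41 in the immunized discs, against 0.23, -0.04 and -0.29 in the naive discs. Only immunized replicates 1 and 5 lay above all naive discs. Tubb3 differed by 0.30 ± 0.33 (SE, interval -0.46 to 1.06, limma adjusted p = 0.574), and by 0.034 without immunized replicate 1.

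Stmn2, which destabilizes microtubules in the growth cone, came closest to a group difference. It read 1.47, 0.38, -0.43, 0.89 and 0.34 in the immunized discs, against -0.74, -0.31 and -0.43 in the naive discs. Immunized replicates 1, 2, 4 and 5 lay above all naive discs, and immunized replicate 3 lay at the level of the naive discs. The immunized mean was 0.53 ± 0.71 (SD, n = 5) and the naive mean -0.49 ± 0.22 (SD, n = 3). The difference was 1.02 ± 0.36 (SE, interval 0.21 to 1.83), or 2.03-fold, with an unadjusted p of 0.0193 in limma that did not pass adjustment (adjusted p = 0.0966). It passed without immunized replicate 3 (1.26, limma adjusted p = 0.0475) and with array weights (1.38, limma adjusted p = 0.0166). Over all 17 alternatives the difference lay between 0.79 and 1.38.

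Stmn2 differed from the neurofilament genes in immunized replicate 4, where Nefl and Nefm were low. Its probe set 1423281_at read 1.42 in that disc and 1423280_at read 0.36, so the size of this value depends on the probe set. The differences of these probe sets were 1.28 ± 0.42 and 0.76 ± 0.31 (SE, limma adjusted p = 0.0930 and 0.159 over all probe sets).

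Gap43, a growth cone membrane protein that Schwann cells can also make, read 0.26, -0.14, -0.36, -0.05 and 0.29 in the immunized discs, against 0.72, 0.05 and -0.29 in the naive discs. Its highest value was in naive replicate 1, the disc with the lowest Nefm and Stmn2. Gap43 differed by -0.16 ± 0.23 (SE, interval -0.68 to 0.36, limma adjusted p = 0.674). The sign turned without naive replicate 1 (0.12) and with array weights (0.15).

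Snap25, a SNARE protein of the presynaptic membrane, read 0.81, 0.03, -1.02, -0.27 and 1.32 in the immunized discs, against -0.61, 0.17 and -0.08 in the naive discs. It was the only one of the 10 genes that was highest in immunized replicate 5. This came from probe set 1416828_at, with 1.56, 0.13, -1.79, -0.57 and 2.49 in the immunized discs, against -1.45, 0.37 and -0.13 in the naive discs. The order of the discs matched the one in Nefl except that immunized replicates 1 and 5, and naive replicate 2 and immunized replicate 2, changed places. The second probe set, 1447763_at, had an array below 4 (log2) and moved by at most 0.48 over the 8 discs. The difference of Snap25 was 0.35 ± 0.47 (SE, interval -0.72 to 1.42, limma adjusted p = 0.650) over both, 0.76 for 1416828_at alone, and 0.063 over both without immunized replicate 5.

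Syt1, the calcium sensor of synaptic vesicles, varied little as a mean over its 4 probe sets, which disagreed. The mean read 0.15, 0.17, -0.04, 0.02 and 0.09 in the immunized discs, against -0.03, -0.01 and -0.06 in the naive discs. The difference was 0.11 ± 0.08 (SE, interval -0.06 to 0.28, limma adjusted p = 0.333). Probe set 1421990_at lay above all naive discs in all 5 immunized discs, with 0.26, 0.38, 0.18, -0.01 and 0.01, against -0.24, -0.08 and -0.09. Its difference, 0.30 ± 0.11 (SE, limma adjusted p = 0.121), did not pass, and 1431191_a_at ran the other way (-0.18 ± 0.10). Probe set 1433884_at read 0.43, 0.05, -0.42, 0.03 and 0.43 in the immunized discs, against -0.05, -0.03 and -0.18 in the naive discs. There immunized replicates 1 and 5 were highest and replicate 3 lowest, as in Nefl, and the range of 0.85 was smaller.

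**Figure D2:**
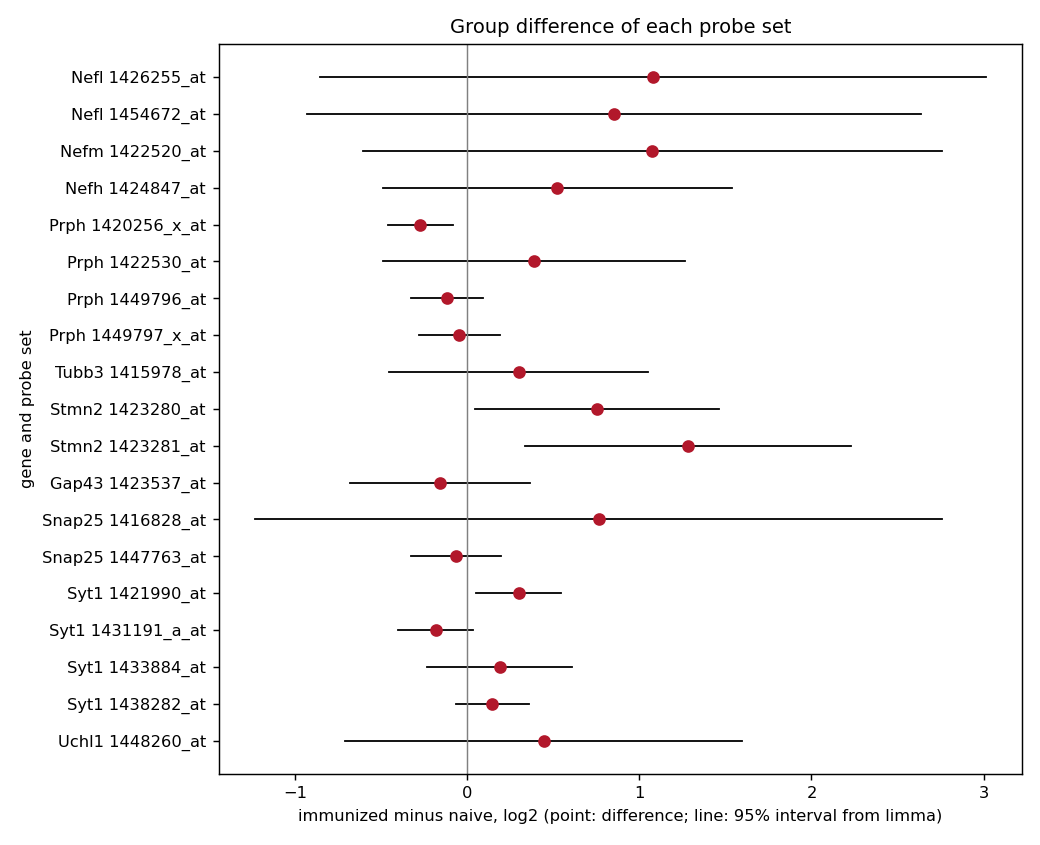
Immunized minus naive difference (points, log2) with limma's 95% interval (lines) for each of the 19 probe sets of the 10 genes. The intervals are widest for Nefl, Nefm and Snap25 1416828_at, and none of the 19 passes after adjustment over all probe sets.

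Tested singly, 0 of the 19 probe sets passed in limma after adjustment over 45037, and 4 had an unadjusted p under 0.05: both of Stmn2, Syt1 1421990_at and Prph 1420256_x_at. Over all probe sets 6.19% passed, 3.3% higher and 2.89% lower, and 27.6% had an unadjusted p under 0.05, 12.5% higher and 15.1% lower. The groups had no overlap in Syt1 1421990_at and Prph 1420256_x_at, nor in 20.4% of all probe sets. How finely the deposited numbers are spaced shows roughly how bright a probe set's dimmest array was. This level was between 4 and 8 (log2) for 17 of the 19 probe sets and below 4 for 2, and 0 lay at 8 or more.

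Several of the genes were high in the same discs. They were chosen with earlier results of these data known, so these counts describe them and are no independent evidence of a pattern. In 6 of the 10 genes the 2 highest of all discs were immunized replicates 1 and 5, as for 2.40% of all genes. The SD among immunized discs of 7 of the 10 was above that of 90% of all genes. Immunized replicate 1 held the highest value of 7 members, and it held the highest value of 4.74% of all genes. The mean of the 10 members was 1.27, 0.18, -0.55, -0.18 and 0.72 in immunized replicates 1 to 5, against -0.40, -0.04 and -0.09 in naive replicates 1 to 3.

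The 10 other genes closest to the members' mean profile were found by the root mean square (RMS) difference over the 8 discs, each gene centred on its median. They were Elavl2 (0.17 on the log2 scale), Map7d2 (0.24), Slc17a6 (0.25), Cntn1 (0.26), Syt4 (0.27), Gng3 (0.29), Synpr (0.29), Mapk10 (0.32), Scg3 (0.32) and Calcb (0.33), and the median gene stood at 0.61. Elavl2 encodes a neuronal RNA-binding protein, Slc17a6 the vesicular glutamate transporter VGLUT2, Cntn1 the axonal adhesion molecule contactin 1 and Synpr the synaptic vesicle protein synaptoporin. Elavl2 read 1.01, 0.07, -0.22, -0.04 and 0.77 in the immunized discs, against -0.22, 0.04 and 0.04 in the naive discs. In 9 of these 10 genes immunized replicates 1 and 5 were again the 2 highest discs, a feature that the choice by profile favours. Calcb, which encodes the sensory neuropeptide beta-CGRP, was high in immunized replicate 1 alone (1.72), with 0.20 in immunized replicates 2 and 5 and between -0.10 and 0.03 in the remaining discs.

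**Figure D3:**
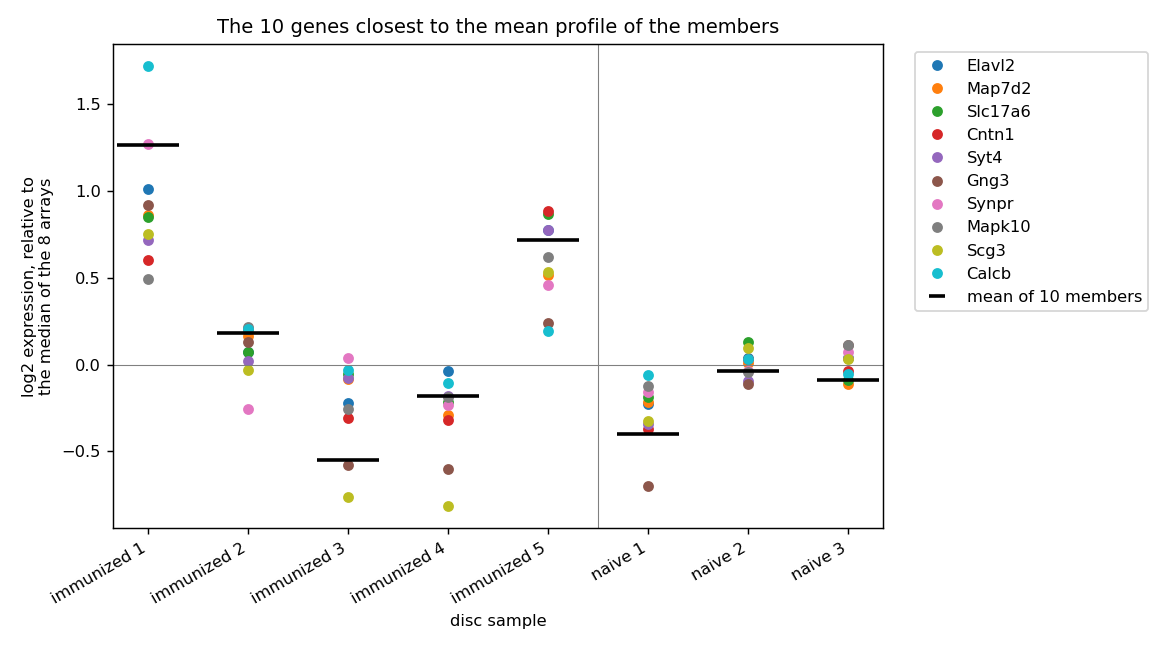
Values (vertical axis, log2, 0 near the median array) of the 10 genes closest to the members' mean profile in each immunized and naive disc sample; black bars are the mean of the 10 members. The points lie highest in immunized replicates 1 and 5, and Calcb is high in immunized replicate 1 alone.

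Other neuronal genes were read from lists of genes by role and cell type. Of 17 pan-neuronal genes 0 passed in limma (unadjusted, 1 was higher and 1 lower), with a median difference of 0.11. In 8 of these 17 the 2 highest discs were immunized replicates 1 and 5. Scg2, a protein of secretory granules named here after its values were seen, read 1.58, -0.06, -0.21, 0.03 and 1.65 in the immunized discs, against -0.04, 0.39 and -0.03 in the naive discs. The neuronal enolase Eno2 ran differently, with a difference of -1.04 ± 0.37 (SE, limma adjusted p = 0.102). The adhesion molecule L1cam differed by 0.45 ± 0.13 (limma adjusted p = 0.0627), Celf4 by -0.27 ± 0.15 and Nsg1 by 0.18 ± 0.11.

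Of 17 synaptic vesicle genes 1 fell and 0 rose, a count near the shares of all genes (4.68% fell, 4.46% rose). The gene that fell was Vamp2, the vesicle partner of SNAP-25, at -0.53 ± 0.12 (SE, limma adjusted p = 0.0355). It read -0.13, 0.08, -0.50, -0.26 and -0.10 in the immunized discs, against 0.38, 0.33 and 0.34 in the naive discs. The groups had no overlap in Vamp2, and 14% of all genes were likewise lower with no overlap. Rab3a (-0.32 ± 0.11), the SNARE gene Stx1a (-0.32 ± 0.14) and Sv2c (-0.29 ± 0.13) did not pass. The call of Vamp2 was lost without any single naive disc (limma adjusted p between 0.0827 and 0.0985) and after quantile normalization (0.0504). It was also lost without immunized replicates 1, 4 or 5. In 7 of the 17 genes immunized replicates 1 and 5 were the 2 highest discs. Of 20 genes of the axon and growth cone cytoskeleton 0 passed in limma, and at an unadjusted p under 0.05 there were 0 higher and 2 lower. The leading ones were Dpysl5 (-0.28 ± 0.09), Dpysl2 (-0.45 ± 0.16), Ank3 (0.19 ± 0.09) and Map2 (-0.32 ± 0.15).

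Smaller shares than in the pan-neuronal (47.1%) and synaptic vesicle (41.2%) lists were found in the other neuronal lists. Immunized replicates 1 and 5 were the 2 highest discs in 2 of 20 axon and growth cone genes (10%) and 2 of 15 sensory genes (13.3%). They were so in 1 of 8 central (12.5%), 1 of 11 sympathetic (9.09%) and 0 of 6 motor neuron genes. The share over all genes was 2.40%, and these counts are small.

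Immunized replicates 1 and 5 differed in which neuronal genes were high. Of the 10 members 8 were higher in immunized replicate 1, and Snap25 and Gap43 in immunized replicate 5. Of 15 sensory neuron genes 11 were higher in immunized replicate 1 than in replicate 5, as were 0 of 8 central neuron genes, 2 of 10 genes of oligodendrocytes and astrocytes and 48.8% of all genes. Shares in lists of other kinds also lay above or below that of all genes. They included 8 of 8 nucleus pulposus genes, 9 of 11 neurotrophic, 7 of 10 macrophage and 11 of 17 Schwann cell genes, and on the low side 5 of 17 synaptic vesicle and 3 of 15 skeletal muscle genes. The mean of the sensory list was 0.45 (median 0.19) in immunized replicate 1, between -0.03 and 0.04 in the other immunized discs and between -0.02 and 0.02 in naive discs. The mean of the central neuron list was 0.37 (median 0.21) in immunized replicate 5. It lay between -0.06 and 0.11 in the other immunized discs and between -0.02 and 0.10 in naive discs. The highest genes of this list in replicate 5 were Gad1 (1.23) and Slc17a6 (0.87), and Slc17a6 read 0.85 in replicate 1. With 1 disc on each side, these differences have no test.

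Within the sensory list, the sodium channel gene Scn11a read 1.34 in immunized replicate 1 and -0.05 in replicate 5, and the transcription factor gene Isl1 0.68 and -0.04. Avil read 0.91 and -0.09, and Tac1, the precursor of substance P, 0.99 and -0.01. These and Calcb were the sensory genes with the highest values in replicate 1, and in the others the gap was smaller, absent or turned round. Trpa1, an irritant channel of nociceptors, read 0.23 and 0.59, Ntrk3 -0.20 and -0.17, Prrxl1 0.12 and 0.12, and Pou4f1 0.01 and 0.02. In contrast, Gad1, which makes the transmitter GABA, read 0.30 and 1.23, and Ina, the filament alpha-internexin, 0.00 and 0.73. Gfap, a filament of astrocytes and of some Schwann cells, read -0.09 in immunized replicate 1 and 1.82 in replicate 5, and Olig1, a factor of oligodendrocytes, -0.56 and 0.99. They had the highest value of their lists in replicate 5, where the oligodendrocyte and astrocyte list had a median of 0.03 and the Schwann cell list, which holds Gfap, a mean of -0.04. Olig2 read -0.08 and 0.04, and Slc1a3 (0.06 and -0.13) and Aldh1l1 (0.07 and -0.40) were higher in replicate 1. Slc17a6 was high in both discs, with 0.85 and 0.87. The mean of the list of oligodendrocyte and astrocyte genes was highest in immunized replicate 2 (0.32), where Nefl read 0.58, and next in replicate 5 (0.22). Calcb, Tac1, Trpa1, Ntrk3, Gad1 and Slc17a6 were picked by the naming rules, which themselves use the values. Apart from the member Nefl, the other genes here were named outside the rules after their values were seen.

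**Figure D4:**
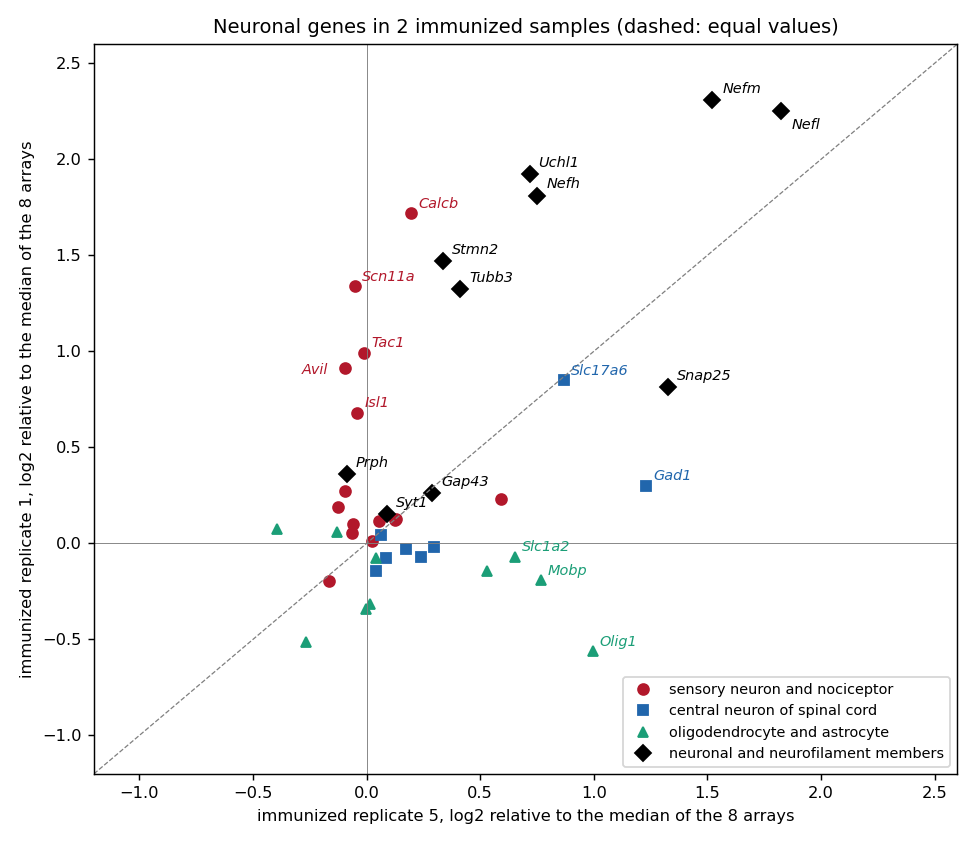
Values (log2, 0 near the median array) in immunized replicate 1 (vertical axis) against immunized replicate 5 (horizontal axis) for the 10 members and 3 gene lists, with a dashed line of equal values. Calcb, Scn11a, Tac1, Avil and Isl1 lie high and near 0 on the horizontal axis, while Gad1 and Olig1 lie to the right, most other list genes lie nearer the origin, and 8 of the 10 members lie above the line.

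No gene of these 3 lists passed between the groups. Of the 15 sensory genes 0 passed in limma (1 higher, 1 lower at an unadjusted p under 0.05), with Runx1 at 0.26 ± 0.10, Ntrk3 at -0.20 ± 0.08, Tac1 at 0.47 ± 0.23 and Trpa1 at 0.25 ± 0.15. Of the 8 central neuron genes 0 passed (2 higher, 1 lower at an unadjusted p under 0.05), with Slc32a1 at -0.35 ± 0.11, Gad1 at 0.71 ± 0.27, Slc17a7 at 0.17 ± 0.07 and Camk2a at -0.20 ± 0.09. Of the 10 glial genes 0 passed (0 higher, 1 lower at an unadjusted p under 0.05), with Gjb6 at -0.41 ± 0.17, Mog at -0.29 ± 0.16, Aqp4 at 0.46 ± 0.29 and Cldn11 at -0.22 ± 0.19. Of 6 motor neuron genes 0 passed in limma (0 unadjusted), with Slc18a3 at -0.11 ± 0.07, Mnx1 at -0.08 ± 0.10, Chat at -0.09 ± 0.11 and Lhx3 at -0.04 ± 0.09.

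Of 11 sympathetic neuron genes 1 rose, beside 4.46% of all genes. This was Slc18a2, the vesicular monoamine transporter, at 1.49 ± 0.30 (SE, limma adjusted p = 0.0268), or 2.81-fold. It read 0.46, 0.13, 1.11, -0.13 and 0.81 in the immunized discs, against -1.53, -0.84 and -0.67 in the naive discs. Mast cells and platelets also express it. The enzymes of noradrenaline synthesis did not pass, Dbh differing by -0.19 ± 0.07 (limma adjusted p = 0.115) and Th, named outside the rule, by -0.02. Cyb561 (0.71 ± 0.22) and Phox2a (-0.20 ± 0.10) did not pass. The call of Slc18a2 was lost without any single naive disc (limma adjusted p from 0.0569 to 0.0805) and without immunized replicates 1 or 5.

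The mean of the Schwann cell and myelin list was not high in the discs with high neurofilament genes. It was 0.02 and -0.04 in immunized replicates 1 and 5 and highest in naive replicate 3 (0.27). In 0 of 17 genes were immunized replicates 1 and 5 the 2 highest discs, a count near the share of all genes (2.40%). Of the 17 genes 1 fell, the myelin gene Ncmap at -1.15 ± 0.27 (SE, limma adjusted p = 0.0368), and 0 rose (3 higher, 7 lower at an unadjusted p under 0.05). Over all genes 4.68% fell and 4.46% rose (12.9% higher, 18.2% lower at an unadjusted p under 0.05). Pmp22 (-0.68 ± 0.22) and Cdh19 (0.96 ± 0.33) did not pass. Among 11 neurotrophic factors and receptors 1 fell, Nrtn, the ligand neurturin, at -1.31 ± 0.26 (SE, limma adjusted p = 0.0268). Artn, a related ligand, differed by 0.40 ± 0.18, and the receptor genes Gfra3 by -0.29 ± 0.10 and Cntfr by -0.27 ± 0.09. Of 19 axon guidance genes 2 fell, beside the same 4.68% of all genes. They were the secreted cues Slit3 (-0.73 ± 0.12, limma adjusted p = 0.0160) and Ntn1 (-0.65 ± 0.17, limma adjusted p = 0.0488). Sema3d (-0.71 ± 0.21) and Unc5b (-0.41 ± 0.13) did not pass. The calls of Ncmap, Nrtn and Ntn1 were lost without any single naive disc and without immunized replicate 1 or 5, and that of Slit3 without naive replicate 2 or 3 or immunized replicate 1. Ncmap and Ntn1 were also lost without immunized replicate 3 or 4 and after quantile normalization, and Ntn1 with arrays centred on their medians.

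**Figure D5:**
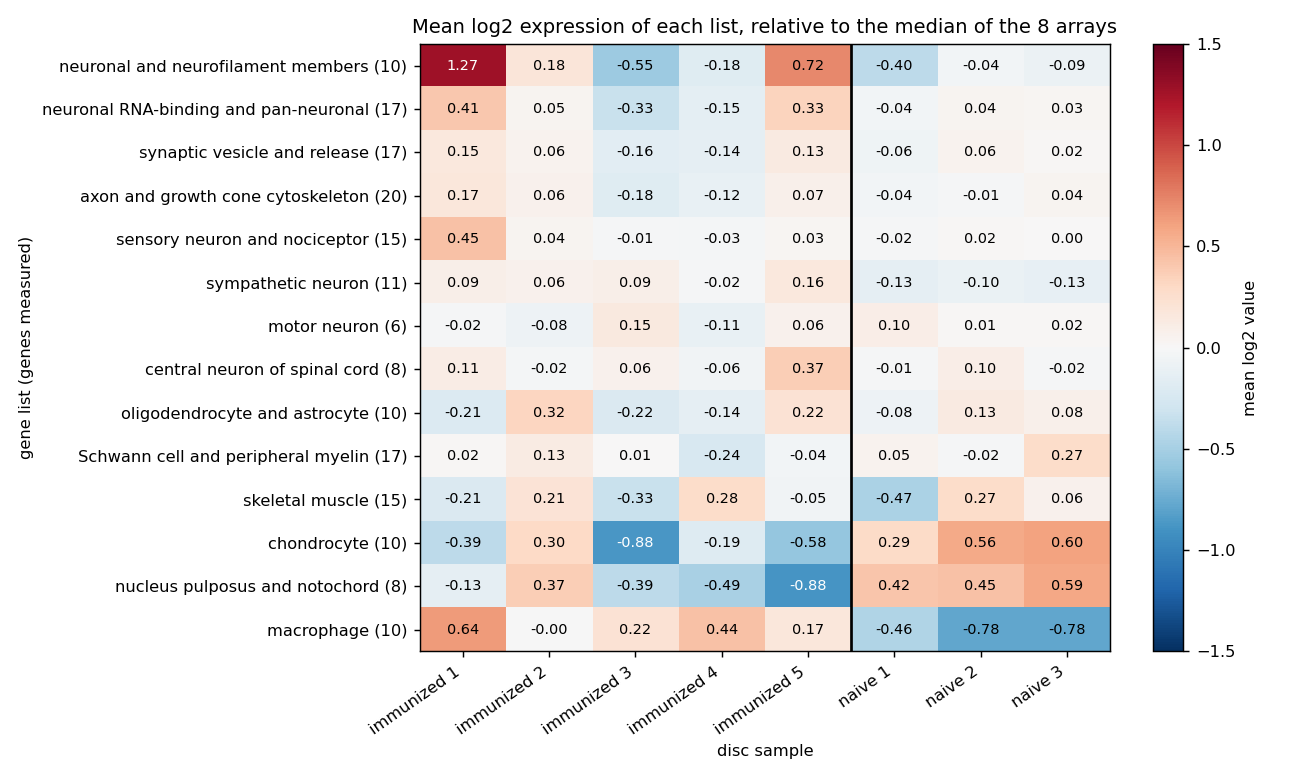
Mean log2 expression of the members and a selection of the gene lists (rows, with the number of genes measured) in each disc sample. Columns are immunized left of the line and naive right of it, with 0 near the median array. The neurotrophic, axon guidance and erythroid lists are not shown. The members are highest in immunized replicates 1 (1.27) and 5 (0.72), the sensory list in immunized replicate 1 (0.45) and the central neuron list in immunized replicate 5 (0.37).

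Markers of the tissue and of its neighbours varied among the same discs, and their part in the neuronal values was not tested. All 10 chondrocyte genes were measured, and 16 of their 18 probe sets had every array at 8 or more (log2). The chondrocyte mean ran from -0.88 to 0.30 in immunized discs and from 0.29 to 0.60 in naive discs. It was lowest in immunized replicate 3 (-0.88), a disc with low Nefl, and next lowest in immunized replicate 5 (-0.58), a disc with high Nefl. Over all genes 4.68% fell, and 18.2% were lower at an unadjusted p under 0.05. In the chondrocyte list 2 of 10 genes fell (0 higher, 9 lower at an unadjusted p under 0.05). These were Sox9 (-0.83 ± 0.19) and Col9a1 (-1.75 ± 0.44), beside Acan (-0.95 ± 0.30) and Col2a1 (-0.73 ± 0.24), which did not pass. In the nucleus pulposus list 1 of 8 fell (0 higher, 6 lower at an unadjusted p under 0.05). This was Krt19 (-2.01 ± 0.36), beside Car3 (-0.61 ± 0.18), Foxf1 (-0.55 ± 0.16) and Krt18 (-1.30 ± 0.46), which did not pass. The calls of Sox9, Col9a1 and Krt19 were lost without any single naive disc or immunized replicate 1.

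Skeletal muscle genes had their list mean between -0.33 and 0.28 in immunized discs and between -0.47 and 0.27 in naive discs. Of 15 muscle genes 0 passed in limma (0 higher, 1 lower at an unadjusted p under 0.05), with Mb at -0.33 ± 0.13, Myh4 at 0.71 ± 0.34, Actn3 at 0.32 ± 0.23 and Tnnc2 at 0.19 ± 0.19. Of 10 macrophage genes 6 rose, beside 4.46% of all genes, led by Lyz2 (0.91 ± 0.13), Itgam (1.81 ± 0.29), Mpeg1 (1.39 ± 0.24) and Adgre1 (1.45 ± 0.26). These 4 calls were lost without naive replicate 2 or 3. The macrophage mean was highest in immunized replicates 1 (0.64) and 4 (0.44) and was 0.17 in replicate 5. Of 6 erythroid genes 0 passed in limma (0 unadjusted), with Gata1 at 0.34 ± 0.34, Klf1 at 0.24 ± 0.31, Alas2 at 0.13 ± 0.26 and Slc4a1 at -0.11 ± 0.28.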

How the data were processed

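RNA of 8 disc samples was measured on Affymetrix arrays. The deposited values are log2 signals that the authors computed with RMA, per the submitters' processing notes, in which no version stands. Base 2 is RMA's own scale; the table names none. Each probe set's median over the arrays is 0 to within 5e-07, a step the labels do not record, so absolute levels are lost. The lowest array's level class was read from the spacing of the values (tolerance 1e-07).

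Control probe sets (64) were left out. Annotation gave 34945 probe sets with 1 gene, 932 with several and 9160 with none, and lookup by gene ID in the RefSeq table (GRCm38.p6) changed 0 symbols. A gene is the mean of all probe sets naming it alone. Immunized and naive samples were compared with limma 3.58.1 (R 4.3.3; lmFit, eBayes, two-sided, no covariate), tested on simulated data. Groups and replicate numbers came from the titles, which call replicates biological. The number of arrays limits the precision. The members and lists were chosen with earlier results of these data known. Named genes are the members, up to 4 genes of each of 16 lists with the largest absolute moderated t, and the 10 nearest profiles. Other settings were normalization, probe set filters, variance model, array weights, a replicate block and omitted samples. The filter on probe sets without an accession was added after the data were seen. Deviations of same-numbered samples from their group means correlated at -0.05, 0.24 and -0.10 across genes. Differently numbered samples were not compared in this way, so these values do not settle whether the numbers pair the samples.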

Additional observations from a re-analysis of the deposited data

Results flagged for a closer look

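A gap test (Dixon, 95% critical value 0.71 for 5 samples) was run within the immunized group on 113 profiles: the members, their probe sets where there are several, the named genes and the list means. It set 1 sample apart in 7 profiles (6.19%). Chance alone flags about 1 in 20 independent profiles. These profiles overlap and many were chosen by their values, so the shares cannot be compared. Immunized replicate 1 stood above the others in Prph 1422530_at (1.71, next 0.22), in Calcb (1.72, next 0.20) and in the sensory neuron and nociceptor mean (0.45, next 0.04). Calcb was chosen for its likeness to the members' mean profile, which is highest in replicate 1. It is also part of the sensory mean, so these flags are not separate. Immunized replicate 5 stood below the others in Prph 1449796_at (-0.21) and in Dbh (-0.14). Immunized replicate 2 stood below the others in Runx1 (-0.12) and Lyz2 (-0.17).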

How the results depend on the processing

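Among the 10 members, 155 of 170 differences under other settings kept their sign and their side of the threshold, 2 passed it and 13 turned in sign. Members called in limma numbered 0 in the analysis reported, and 1 (Stmn2) with array weights, without immunized replicate 3 or at an adjusted p under 0.1, so the range over single omitted samples was 0 to 1. Their probe sets called numbered 3 with array weights and 0 to 1 over single omitted samples. Genes called in all (1663) became 910 after quantile normalization (541 higher, 369 lower), 5900 with array weights, 7 with the replicate block and 0 in limma without both samples with joined numbers (3794 unadjusted). They numbered 21 to 3003 over single omitted samples, 3783 and 54 at adjusted p under 0.1 and 0.01, and 2787 as single probe sets. With medians of arrays at 0, 885 were higher and 725 lower, against 812 and 851. Probe sets called (2787) became 1422, 10150, 91 and 4 under quantile normalization, array weights, the replicate block and omission of the joined samples, and 123 to 5299 over single omitted samples. List genes called (15) became 9, 64, 0 and 0 in limma (41 and 32 unadjusted in the last pair) and 0 to 37 over single omitted samples. The replicate block, which rests on numbers that the titles do not call pairs, changed no member's call.

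Signs turned for Prph after quantile normalization (0.0012), with arrays at their medians (0.0025), without _x_at and _s_at probe sets (0.14), without probe sets with no accession (0.39), with array weights (0.15), with the replicate block (0.065) and over single omitted samples (-0.088 to 0.023). They turned for Tubb3 and its probe set without both joined samples (-0.093). They turned for Gap43 with array weights (0.15, probe set 0.12) and over single omitted samples (-0.38 to 0.12), for Prph 1449797_x_at over the same (-0.085 to 0.0065), and for Snap25 1447763_at with array weights (0.038) and over single omitted samples (-0.11 to 0.021). Among other genes they turned without joined samples for Mnx1 (0.020) and Scg3 (-0.15), with the replicate block for Lhx3 (0.030) and Slc4a1 (0.11), with array weights for Tnnc2 (-0.066) and Slc4a1 (0.075), after quantile normalization for Scg3 (-0.079), and for Mapk10 without _x_at and _s_at or unaccessioned probe sets (-0.097). Over single omitted samples the ranges that crossed 0 were -0.17 to 0.015 for Mnx1, -0.087 to 0.038 for Lhx3, -0.050 to 0.37 for Tnnc2, -0.098 to 0.36 for Alas2, -0.33 to 0.0099 for Slc4a1 and -0.20 to 0.19 for Scg3. The cause was not tested.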
